A study of Mus musculus with 672 samples.

Results

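Among mouse bone marrow lymphoid progenitors sorted 1 cell to a well and sequenced singly, 64 carried at least 10 Pax5 reads. They came from 375 all-lymphoid progenitors (ALP) and B cell-biased lymphoid progenitors (BLP) that passed quality filters, out of 561 passing cells and 672 sorted cells in the whole experiment. A passing cell had at least 50000 reads on nuclear genes, at least 1000 detected genes, at most 20% of reads on mitochondrial genes and at most 50% on spike-in RNA. The other 311 ALP and BLP cells, with fewer than 10 Pax5 reads, are called Pax5-low here, and the 64 cells are called Pax5 cells. The cells were chosen by the Pax5 count alone, so the level of Pax5 was described and not tested between them and the rest, and only the share of cells past that count was compared over mice.

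The cells came from femurs and tibiae of 4 mice of mixed C57BL6/129Ola strain, all 7 weeks old. Mice 18218 and 18220 were homozygous for an Mbd3 allele flanked by recombination sites (Mbd3 Flox/Flox) and served as controls. Mice 18217 and 18219 carried the deleted allele on both chromosomes (Mbd3 Del/Del) and are called null. Mbd3 is a subunit of the NuRD complex, which combines nucleosome remodelling with histone deacetylation. The labels name neither the recombinase that made the deletion nor whether the controls carried it. Both populations were gated as lineage-negative, Sca-1+, c-Kit+, Flt3-high, IL-7Ra+ and B220-, and surface Ly6D separated Ly6D- ALP from Ly6D+ BLP. Lymphoid-primed multipotent progenitors (LMPP) from the same mice were gated as IL-7Ra- and served as a reference for background Pax5 reads. The mouse is the replicate throughout, with 2 per genotype.

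Pax5 is a paired-domain transcription factor that commits lymphoid progenitors to the B lineage. It acts after E2A, Ebf1 and Foxo1 have opened the early B cell programme, activates genes of B cell receptor signalling and represses genes of other lineages. The pre-B cell receptor is built from the immunoglobulin heavy chain, the surrogate light chain encoded by Igll1, Vpreb1 and Vpreb2, and the signalling pair Cd79a and Cd79b. Its signal runs through kinases such as Syk and Btk and the adaptor Blnk.

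Pax5 (ENSMUSG00000014030, chromosome 4, 44524757 to 44710487, minus strand, GRCm38) had between 10 and 4778 reads in the 64 cells, with a median of 136.5 reads and of 109 reads per 1000000 reads of the cell (CPM). The median was 76 reads in 19 null ALP cells, 125 in 22 control BLP cells and 162.5 in 22 null BLP cells. The single control ALP cell had 90 Pax5 reads. Ranges overlapped in every group: 10 to 1352 in null ALP, 11 to 1334 in control BLP and 11 to 4778 in null BLP. The 8 cells just inside the threshold had 10, 10, 10, 11, 11, 12, 14 and 16 reads, and the 8 just outside it had 9, 8, 6, 5, 4, 4, 4 and 4. In CPM these neighbours overlapped, at 3.51 to 21.1 inside and 0.498 to 7.17 outside. Of the Pax5-low cells, 110 had a Pax5 read, 106 of them with 1 to 4 reads and 4 with 5 to 9. Among LMPP 47 of 186 cells had a read, none had more than 4, and 0 of 186 reached 10, which allows a share of up to 1.61% by counting error alone.

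**Figure D1:**
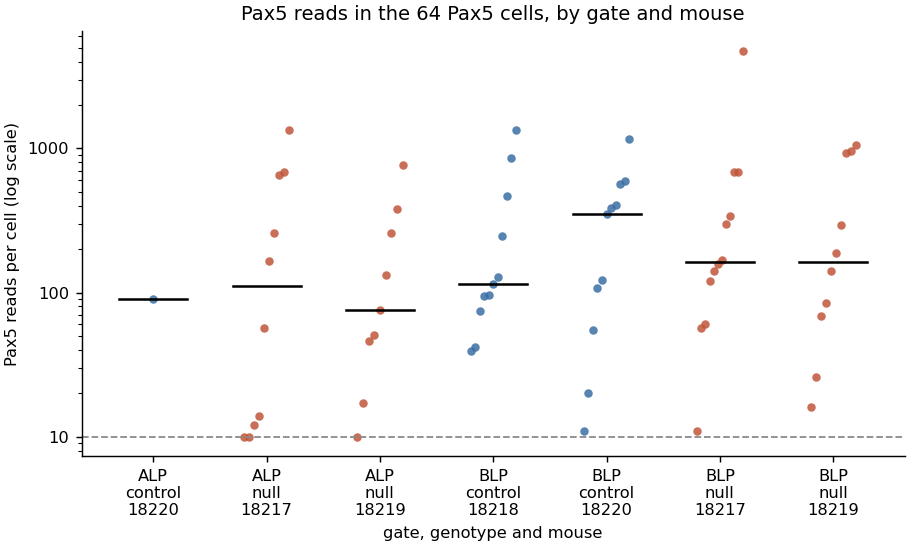
Pax5 reads in each of the 64 Pax5 cells, by population, genotype and mouse, on a log scale, with the threshold of 10 reads marked. The Pax5 cells of ALP and BLP reach from 10 to 4778 reads. Pax5-low cells and LMPP are not drawn.

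Pax5 cells had 567536 to 6765453 nuclear reads, median 1329300, against a median of 1405640 in Pax5-low cells. The median share of mitochondrial reads was 6.90% against 6.50%, and of spike-in reads 12.2% against 9.49%. Mbd3 matched the genotype labels: at least 10 reads were found in 12 of 22 control BLP Pax5 cells and in 0 of 41 null Pax5 cells. Whether the residual differences in quality between the classes moved any result below was not tested.

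The share of Pax5 cells was higher in BLP than in ALP of every mouse and, within ALP, higher in both null mice than in both controls. In control ALP, 0 of 74 cells of mouse 18218 and 1 of 40 cells (2.5%) of mouse 18220 were Pax5 cells. In null ALP the counts were 10 of 79 (12.7%) in mouse 18217 and 9 of 42 (21.4%) in mouse 18219. The exact 95% binomial (Clopper-Pearson) intervals, which cover counting error only, were 0% to 4.86% and 0.0633% to 13.2% in the controls, and 6.24% to 22.0% and 10.3% to 36.8% in the nulls. Both null values lay above both control values, with means of 17.0% ± 6.2 and 1.25% ± 1.77 (SD, n = 2 mice each). The difference of 15.8 percentage points had p = 0.333 when genotypes were permuted exactly over mice (two-sided), which is the smallest p that 2 against 2 can give.

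In BLP the share of Pax5 cells was 11 of 34 (32.4%) and 11 of 35 (31.4%) in control mice 18218 and 18220, and 12 of 36 (33.3%) and 10 of 35 (28.6%) in null mice 18217 and 18219. The genotype means were 31.9% ± 0.654 and 31.0% ± 3.37 (SD, n = 2 mice each), with null minus control at -0.938 percentage points (p = 1, exact permutation test). The sign of that small difference changed with the threshold and with the mouse left out. With any cell holding 1 Pax5 read counted, the BLP shares were 60.5% in null and 72.5% in control mice, a difference of -12.0 percentage points with both nulls below both controls (p = 0.333, exact permutation test). Within each of the 4 mice the BLP share exceeded the ALP share, on average 31.4% ± 2.05 against 9.15% ± 9.85 (SD, n = 4). The paired difference was 22.3 percentage points, with p = 0.125 (exact permutation of the 4 pairs, two-sided), the smallest p possible.

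The quality filters removed cells unevenly, 54 control and 47 null ALP cells against 3 control and 1 null BLP cells. They were also uneven between mice of a genotype. Of 84 sorted ALP cells a mouse, 74 and 40 were kept in controls 18218 and 18220. In nulls 18217 and 18219, 79 and 42 were kept. None of the 101 removed ALP cells had 10 Pax5 reads. With all sorted cells counted, the null ALP shares were 11.9% in mouse 18217 and 10.7% in mouse 18219. The control shares were then 0% and 1.19% in mice 18218 and 18220, and the ALP difference was 10.7 percentage points. The higher share of mouse 18219 than of mouse 18217 was thus seen among kept cells only. With any cell holding 1 Pax5 read counted, the ALP shares were 38.1% in null and 31.6% in control mice (p = 0.667, exact permutation test), a level at which LMPP also held reads in 12.8% to 34.0% of the cells of a mouse.

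**Figure D2:**
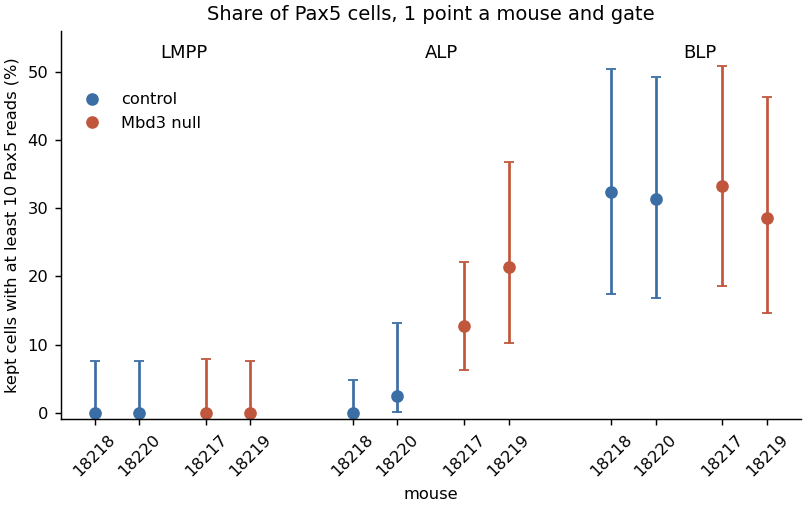
Percentage of kept cells with at least 10 Pax5 reads in each mouse, for LMPP, ALP and BLP, with exact 95% binomial intervals as error bars. BLP of all 4 mice lie between 28.6% and 33.3%, null ALP at 12.7% and 21.4%, and control ALP at 0% and 2.5%.

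The promoters of Cd79a, Igll1 and Vpreb2, which encode a signalling chain and both kinds of surrogate light chain protein of the pre-B cell receptor, are shown because the transcripts of these genes are followed cell by cell in the next paragraphs. RefSeq (GRCm38.p6) gave promoters for 8 of the 12 genes on the pre-B cell receptor list. The 250 bases before each annotated start are printed 5′ to 3′ on the gene's strand, with capitals at matches to CCCNNGGG or CAAGGGA (letter patterns of the kind bound by Ebf1) and to CACCTG (an E box of the kind bound by E2A), on both strands.
Cd79a, chr7:24897247-24897496, plus strand: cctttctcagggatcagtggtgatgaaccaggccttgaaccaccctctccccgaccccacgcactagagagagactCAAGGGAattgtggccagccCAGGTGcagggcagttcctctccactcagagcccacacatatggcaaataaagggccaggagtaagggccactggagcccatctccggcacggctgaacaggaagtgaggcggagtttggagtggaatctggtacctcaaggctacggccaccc
Igll1, chr16:16863986-16864235, minus strand: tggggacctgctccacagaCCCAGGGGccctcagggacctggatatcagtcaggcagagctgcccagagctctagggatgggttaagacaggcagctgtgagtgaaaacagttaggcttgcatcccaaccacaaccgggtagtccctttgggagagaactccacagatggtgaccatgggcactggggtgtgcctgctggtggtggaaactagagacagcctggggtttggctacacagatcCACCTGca
Vpreb2, chr16:17980315-17980564, plus strand: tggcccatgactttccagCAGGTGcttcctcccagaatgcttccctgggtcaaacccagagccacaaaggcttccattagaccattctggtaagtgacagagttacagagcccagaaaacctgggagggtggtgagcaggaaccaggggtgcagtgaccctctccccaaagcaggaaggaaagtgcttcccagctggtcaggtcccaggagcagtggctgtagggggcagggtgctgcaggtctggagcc
CACCTG or its complement CAGGTG stood 154 bases before the start of Cd79a, 8 before Igll1 and 232 before Vpreb2. It was found in 7 of the 9 promoters of these 8 genes and in 17.2% of all 32851 promoters of the same length. CAAGGGA stood 174 bases before the start of Cd79a and was found in 1 of the 9 promoters and in 4.21% of all promoters. CCCNNGGG stood 231 bases before Igll1 and was found in 1 of the 9 and in 11.8% of all. These 3 patterns were chosen for printing, after their matches were seen, from 8 that were searched, and a match describes letters only.

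Within single cells, Pax5 was found together with the early B cell genes. Cd79a had at least 10 reads in 61 of 64 Pax5 cells (95.3%) against 104 of 311 Pax5-low cells (33.4%) and 2.69% of LMPP. Ebf1, the factor that acts before Pax5, had 10 reads in 59 of 64 Pax5 cells (92.2%) against 158 of 311 (50.8%). Ebf1, Cd79a and the recombinase gene Rag1 were detected together in 78.9% of Pax5 cells and 29.4% of Pax5-low cells of null ALP, in 90.9% and 51.1% in control BLP and in 81.8% and 34.7% in null BLP. Control ALP, with 1 Pax5 cell, had all 3 genes in 7.08% of its Pax5-low cells. These shares pool the cells of several mice and were not tested, and those over all 375 cells also mix ALP and BLP in different proportions in the 2 classes. With every cell thinned to 50000 reads, the share of cells holding a Cd79a read was 89.5% against 34.3% in null ALP, 100% against 61.7% in control BLP and 100% against 59.2% in null BLP.

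The converse did not hold, because many Cd79a cells were Pax5-low. In BLP, 40.7% and 39.3% of the Cd79a cells of the control mice 18218 and 18220 were Pax5 cells, and 48.0% and 47.6% of those of the null mice 18217 and 18219. In null ALP the shares were 31.0% and 33.3%. In control ALP none of the 11 Cd79a cells of mouse 18218 was a Pax5 cell, and mouse 18220 had no Cd79a cell. The 1 control ALP Pax5 cell had 62 Ebf1 reads and 110 Cd79b reads, but 2 of Cd79a, 1 of Rag1 and 0 of Igll1.

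Surrogate light chain transcripts varied among the Pax5 cells. At least 1 of Igll1, Vpreb1 and Vpreb2 reached 10 reads in 11 of 19 null ALP Pax5 cells (57.9%), against 31 of 102 Pax5-low cells (30.4%) of that group. In control BLP the counts were 21 of 22 (95.5%) against 30 of 47 (63.8%), and in null BLP 19 of 22 (86.4%) against 25 of 49 (51.0%). Igll1, given as a marker of these cells, was found in only 20 of the 64 (31.2%), so the group as a whole was not Igll1-positive. The median number of the 12 pre-B cell receptor genes in a Pax5 cell and a Pax5-low cell was 8 and 5 in null ALP, 9.5 and 7 in control BLP, and 9 and 6 in null BLP.

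**Figure D3:**
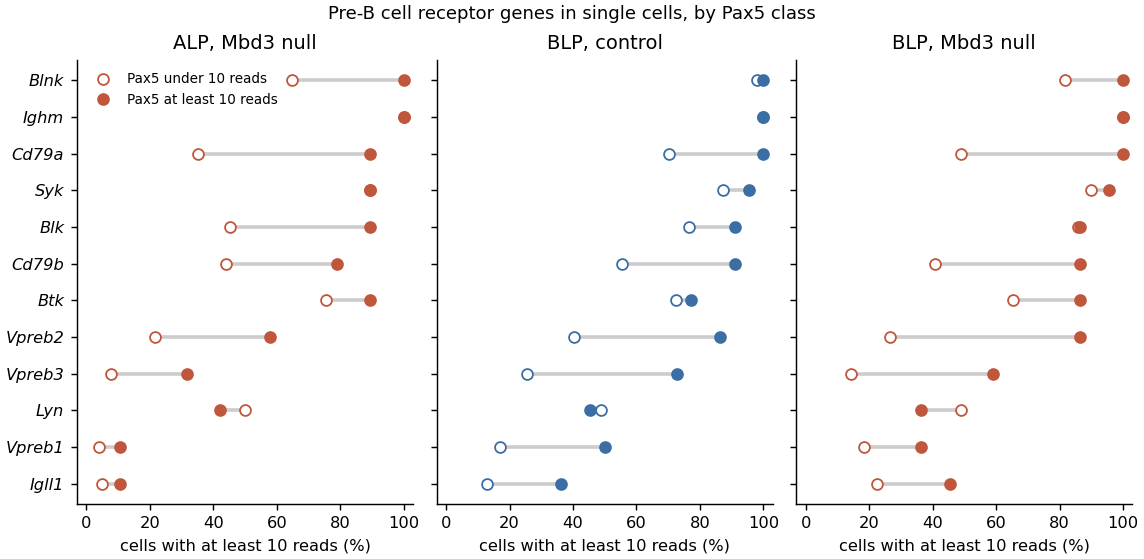
Percentage of cells with at least 10 reads of each pre-B cell receptor gene, in Pax5 cells and Pax5-low cells of the same population and genotype. Cd79a reaches 89.5% in null ALP and 100% in both BLP groups of Pax5 cells, while Igll1 stays at 10.5%, 36.4% and 45.5%.

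Dntt, the template-free polymerase of recombination, and Ighm had at least 10 reads in all 64 Pax5 cells and all 311 Pax5-low cells. Over the 64 cells, Spearman's rho of Pax5 CPM was highest with Cd79b (0.431) and Cd79a (0.422) among 25 genes compared. The order was not the same within groups: with Rag2 it was 0.601 in 22 control BLP cells, where Cd79b had 0.359, and in 22 null BLP cells Cd79a had 0.259. These values describe single cells of 4 mice, which are not independent replicates. The cells differed in depth, at 567536 to 6765453 nuclear reads, and the correlations were not tested.

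To compare the classes over mice, the reads of all cells of 1 mouse, population and class were summed. Libraries of at least 3 cells gave 14 sums of 13121041 to 122514230 reads, and the class effect was averaged over null ALP, control BLP and null BLP. Of 17855 genes tested by edgeR's quasi-likelihood test, 25 passed an adjusted p of 0.05 (0.14% of the genes), 7 higher (0.0392%) and 18 lower (0.101%) in Pax5 cells. With the mouse as a block, 0 of the 25 passed, and leaving out any 1 of the 4 mice also left 0. At an unadjusted p under 0.05 there were 2306 genes, 12.9%. A second test, limma on each library's mean of log2(CPM + 1) per cell, weighs every cell equally. It called 56 genes (0.314% of those tested), 36 higher (0.202%) and 20 lower (0.112%). It shared 9 of the 25 edgeR calls in the same direction. Of the 13 edgeR calls named below, limma did not call Bfsp2, Cd24a, Samsn1, Irf8, Spc24 and Maged1, and edgeR on cells thinned to 50000 reads did not call Bin1, Bcl2 and Maged1. Pax5 libraries held 9 to 12 cells and Pax5-low libraries 23 to 74, so a gene read in few cells was sampled less often in the former.

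Ebf1 rose in Pax5 cells. It was at 239 and 372 CPM in Pax5 cells of null ALP (mice 18217 and 18219), 632 and 501 in control BLP (18218 and 18220), and 513 and 632 in null BLP (18217 and 18219). In the Pax5-low cells of the same libraries it was at 136, 171, 123, 135, 140 and 115 CPM. The classes did not overlap, and the log2 difference was 1.76 ± 0.16 (SE), 3.40-fold (adjusted p = 0.0137, edgeR). With the mouse as a block the adjusted p was 0.0592, and with 1 mouse left out it was 0.177 to 0.429. In control ALP, where Pax5 cells were nearly missing, Ebf1 was at 23.2 and 18.4 CPM in Pax5-low cells, while those of null ALP were at 136 and 171.

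Cd79b, the partner chain of Cd79a, was at 339, 342, 525, 672, 330 and 527 CPM in Pax5 cells and at 88.1, 150, 82.8, 139, 138 and 95.4 in Pax5-low cells, in the same order of libraries. Every Pax5 library was above every Pax5-low library, with a log2 difference of 1.94 ± 0.23, 3.84-fold (adjusted p = 0.0241, edgeR). Cd79b was also read in LMPP, where 52.7% of cells had at least 10 reads. Slc25a1, the mitochondrial citrate carrier, was at 931, 626, 2088, 1919, 825 and 541 CPM against 349, 386, 641, 476, 296 and 358. Control BLP was highest in both classes, and the log2 difference was 1.33 ± 0.15 (adjusted p = 0.0212, edgeR).

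The smaller rises were those of Bin1, a membrane-bending adaptor, of Bfsp2, a filament protein, and of Cd24a, a surface glycoprotein that increases as B cells develop. Their log2 differences were 0.99, 1.35 and 0.74 (adjusted p = 0.0446 each, edgeR). Bin1 and Bfsp2 were higher in Pax5 cells in all 6 pairs of libraries. Cd24a was likewise higher in 6 of 6, but in null ALP of mouse 18219 by only 630 against 621 CPM.

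Among the genes that fell, Fcer1g stands on the list of genes that Pax5 represses and encodes a signalling chain of Fc receptors. It was at 56.1, 37.0, 59.7, 83.2, 130 and 96.5 CPM in Pax5 cells and at 111, 168, 290, 528, 365 and 374 in Pax5-low cells, a log2 difference of -1.94 ± 0.22 (adjusted p = 0.0212, edgeR). Samsn1, an adaptor that dampens lymphocyte signalling, was at 177, 200, 87.2, 65.2, 94.5 and 94.1 CPM against 330, 299, 252, 238, 248 and 306, with a log2 difference of -1.33 ± 0.14 (adjusted p = 0.0138, edgeR). Both genes were lower in Pax5 cells in all 6 pairs of libraries, and for Samsn1 no Pax5 library reached a Pax5-low one.

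Irf8, a transcription factor needed by dendritic and myeloid lineages and also by B cells, was at 155, 153, 359, 371, 284 and 434 CPM against 159, 356, 1244, 2034, 1926 and 1342. The separation was wide in BLP and nearly absent in null ALP of mouse 18217, and the averaged log2 difference was -1.70 ± 0.24 (adjusted p = 0.0446, edgeR). Bcl2, an inhibitor of cell death, was at 46.2, 38.8, 54.8, 87.2, 63.5 and 115 CPM against 177, 116, 230, 327, 173 and 153, a log2 difference of -1.54 ± 0.23 (adjusted p = 0.0446, edgeR). Every Pax5 library lay below its Pax5-low partner.

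Grn, which encodes the lysosomal growth factor progranulin, was at 28.8, 11.4, 68.5, 62.3, 1.00 and 2.03 CPM against 48.3, 101, 147, 197, 137 and 160. Its log2 difference of -3.30 ± 0.34 (adjusted p = 0.0138, edgeR) rested on few cells, as 10 of 64 Pax5 cells and 139 of 311 Pax5-low cells had at least 10 reads. In mouse 18217 a single null ALP cell held 97.0% of the Grn reads of its Pax5 library. Spc24, a kinetochore subunit, and Maged1 also fell, with log2 differences of -1.88 and -3.37 (adjusted p = 0.0446 each, edgeR). Spc24 was lower in 5 of 6 pairs and Maged1 in 5 of 6. The other 12 genes called had lower levels than the 20 CPM set for naming a gene, or were of kinds left unnamed.

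**Figure D4:**
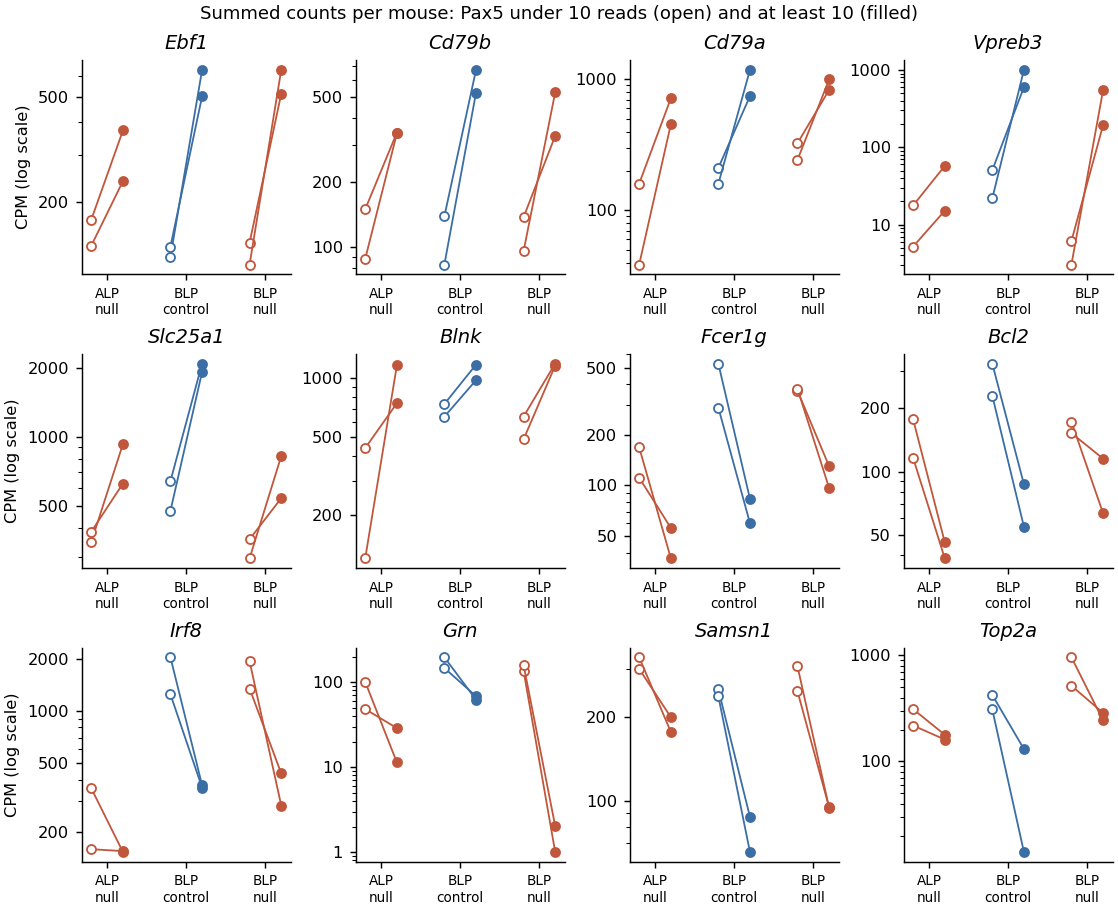
CPM of 12 genes in the summed libraries of each mouse on a log scale, open symbols for Pax5-low cells and filled symbols for Pax5 cells. Ebf1 and Cd79b are higher in Pax5 cells of all 6 pairs and Fcer1g, Bcl2, Grn and Samsn1 lower in all 6.

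Of the other 11 pre-B cell receptor genes 0 passed by edgeR. Cd79a was at 454, 716, 746, 1184, 1002 and 832 CPM in Pax5 cells against 38.6, 160, 211, 159, 243 and 325 in Pax5-low cells, and the classes did not overlap. Its log2 difference was 2.21 ± 0.57 with an adjusted p of 0.165 (edgeR). Vpreb3, which binds the nascent chains, was at 15.1, 57.4, 599, 1004, 548 and 193 CPM against 5.19, 17.7, 50.5, 21.8, 3.04 and 6.12 (log2 difference 4.16, adjusted p = 0.0539, edgeR). Vpreb2 was at 76.0, 36.1, 299, 340, 130 and 143 CPM against 13.0, 22.1, 46.1, 16.9, 30.0 and 32.5 (adjusted p = 0.165, edgeR). Both were lower in the Pax5 cells of null ALP than in any BLP library of Pax5 cells.

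Igll1 varied most between libraries, at 2.11, 14.4, 44.1, 1050, 1509 and 547 CPM in Pax5 cells against 1.70, 2.14, 1.59, 2.22, 134 and 14.3. A single cell held 99.5% of the Igll1 reads in the control BLP library of mouse 18220. Single cells stood out in other libraries too. The highest cell had 25037 reads and the next 2768 in null BLP of mouse 18217, and 7047 and 1539 in null BLP of mouse 18219. In null ALP of mouse 18219 they had 164 and 6. The log2 difference was 4.69 ± 0.89 (adjusted p = 0.0792, edgeR). Blnk was already abundant in Pax5-low BLP cells, at 488 to 740 CPM, and reached 979 to 1191 in the Pax5 cells of BLP (log2 difference over all 3 groups 1.16, adjusted p = 0.137, edgeR).

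On the pre-B cell receptor list, 1 of 12 genes rose by edgeR (Cd79b), beside 7 of all 17855 genes tested (0.0392%). A higher fitted value was found for 11 of 12, beside 7478 of all 17855 genes tested. The median log2 difference was 1.55 beside -0.15 over all genes tested. Of that list limma called 7 of 12 higher, beside 36 of all 17855 genes tested (0.202%). The 7 were Blnk, Cd79a, Cd79b, Igll1, Vpreb1, Vpreb2 and Vpreb3. With the mouse as a block in limma, Igll1 did not pass (adjusted p = 0.0647). Cd79a had an adjusted p of 0.000166 by limma, and over all alternatives its adjusted p ran from 1.07e-24 to 0.632. The list was drawn up with earlier results of these data known, so its count is a description.

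Of 19 genes that Pax5 is known to activate, 0 rose and 1, Irf8, fell by edgeR, although the median log2 difference was 0.63. By limma 3 of the 19 rose, beside 0.202% of all genes tested, namely Cd79a, Blnk and the coactivator gene Pou2af1. Ikzf3 and Spib reached 10 reads in no Pax5 cell. Of 15 Pax5-repressed genes, 1 fell (Fcer1g), with a median of -0.14 by edgeR that matched all genes. By limma the median of that list was -0.25, beside -0.02 over all genes tested. Cd28, a T cell costimulatory receptor on that list, was found in 2 of 64 Pax5 cells and 55 of 311 Pax5-low cells (log2 difference -4.84, adjusted p = 0.0586, edgeR). Flt3, whose protein was in the sorting gate, was at 617 to 1101 CPM against 544 to 866.

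Of 18 B lineage transcription factors, Ebf1 rose, Irf8 fell and the median was 0.03. By limma 3 of the 18 rose, Ebf1, Foxo1 and Pou2af1, beside 0.202% of all genes tested. By that test 0 fell, as Irf8 did not pass (adjusted p = 0.104). Foxo1, which acts beside Ebf1, was at 189, 231, 107, 195, 253 and 280 CPM against 72.9, 60.8, 99.1, 150, 150 and 156 (log2 difference 0.91, adjusted p = 0.107 by edgeR and 0.00942 by limma, within 0.000104 to 1 over all alternatives). Of 10 recombination genes 0 passed. Rag1 was at 412, 536, 410, 416, 240 and 520 CPM against 136, 161, 228, 241, 164 and 257 (log2 difference 1.12, adjusted p = 0.103, edgeR). Of 11 genes of IL-7 receptor signalling, Bcl2 fell, and Il7r itself was at 560 to 1168 CPM in Pax5 libraries and 504 to 828 in their Pax5-low partners. Of 12 tested surface genes of lymphoid progenitors, Cd24a rose.

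Of 14 dendritic genes 1 fell by edgeR, again Irf8, and 12 of 14 had a lower fitted value, beside 10372 of all 17855 genes tested. The median log2 difference of the list was -1.54 by edgeR and -0.53 by limma. The summed level of the list was 775 to 1468 CPM in Pax5 libraries and 972 to 5321 CPM in Pax5-low ones, so that the ranges overlapped, and it was highest in Pax5-low BLP. Siglech, a receptor of plasmacytoid dendritic cells, was at 0.936, 3.89, 63.0, 37.2, 6.42 and 98.8 CPM in Pax5 cells against 23.6, 54.7, 604, 1071, 630 and 457 (log2 difference -3.82, adjusted p = 0.0586, edgeR). By limma 2 of the 14 fell, Cox6a2 and Ly6c2, beside 0.112% of all genes tested. Zbtb46 reached 10 reads in no Pax5 cell. The part of these transcripts in the other differences was not tested.

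Genes of other lineages did not pass the test. Of 14 tested T lineage genes, 9 NK genes, 11 myeloid genes, 9 erythroid and megakaryocyte genes and 9 mature B and plasma cell genes, 0 passed in either direction by edgeR. Their medians by edgeR were -0.81, -2.79, -0.08, -1.77 and -0.22 in log2 difference, beside -0.15 over all genes tested. By limma, which weighs cells equally, they were only -0.04, -0.17, -0.04, -0.06 and -0.05, beside -0.02 over all genes tested. Below 10 reads in all Pax5 cells were 5 of 15 T lineage genes, among them Bcl11b and Cd3e, and 9 of 14 NK genes, among them Ncr1 and Eomes. The same held for 5 of 15 myeloid genes, among them Elane and S100a8, for 8 of 13 erythroid and megakaryocyte genes, among them Gata1 and Klf1, and for 7 of 12 mature B genes, among them Ms4a1. These counts stand without the share of all genes below 10 reads and without the counts in Pax5-low cells. They therefore do not set the Pax5 cells apart. Summed T lineage transcripts were at 455 to 816 CPM in Pax5 libraries and 459 to 873 in Pax5-low ones. Summed NK transcripts were at 288 to 535 CPM in Pax5 libraries and 465 to 553 in Pax5-low ones. Summed myeloid transcripts were at 314 to 910 CPM in Pax5 libraries and 161 to 1098 in Pax5-low ones, and erythroid and megakaryocyte ones at 0.794 to 41.6 and 11.3 to 86.3. All these ranges overlapped.

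Of 20 genes of S phase and 20 of G2 or mitosis, 0 passed. The latter had lower fitted values in 19 of 20, beside 10372 of all 17855 genes tested. Their median log2 difference was -0.85, beside -0.15 over all genes tested. Top2a, the topoisomerase that untangles replicated DNA, was at 178, 161, 131, 14.0, 243 and 287 CPM in Pax5 cells against 311, 218, 423, 309, 959 and 517 (adjusted p = 0.218, edgeR). The S phase list had a median of -0.18 by edgeR, close to that of all genes. By limma the medians were -0.52 for S phase and -0.64 for G2 or mitosis, beside -0.02 over all genes tested. Of 13 NuRD subunit genes 0 passed, with a median of -0.19 by edgeR and -0.32 by limma.

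Between populations, BLP and ALP Pax5 cells could be compared in the null mice only. Of 17855 genes, 0 passed by edgeR (percent called 0) and 1884 (10.6%) had an unadjusted p under 0.05, while DESeq2 called 1380 and limma called 23 (0.129%), 12 higher (0.0672%) and 11 lower (0.0616%) in BLP. Ly6d, whose protein defines the gate, was at 52.0 and 44.5 CPM in Pax5 cells of null ALP and at 1876 and 582 CPM in those of null BLP, which did not overlap. The log2 difference was 4.67 ± 0.79 with an adjusted p of 0.228 by edgeR and 0.000861 by limma, within 3.05e-68 to 0.506 over all alternatives. Impad1, a phosphatase of the Golgi, was at 2.88 and 0.763 CPM in ALP against 77.1 and 98.3 in BLP (log2 difference 5.59 ± 0.66, adjusted p = 0.121, edgeR). Ms4a6b, a four-span membrane protein, was at 0.390 and 0.305 CPM against 38.2 and 54.2 (adjusted p = 0.228, edgeR), but no more than 4 of 22 BLP cells held 10 reads. Of the genes with the smallest p, only ones higher in BLP are named here. Ebf1 was at 239 and 372 CPM in ALP and at 513 and 632 in BLP, and Rag1 at 412 and 536 against 240 and 520, so that the Rag1 values overlapped.

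Between genotypes, Pax5 cells of null and control BLP were compared with 2 mice each. Of 17855 genes 0 passed by edgeR (percent called 0), 2006 (11.2%) had an unadjusted p under 0.05, DESeq2 called 1577 and limma called 1, Ablim1 (0.0056%). Mbd3 itself (ENSMUSG00000035478, chromosome 10) was at 44.7 and 183 CPM in the controls 18218 and 18220 and at 0.251 and 0.732 CPM in the nulls 18217 and 18219, a log2 difference of -7.86 ± 1.29 with an adjusted p of 0.105 (edgeR). The deleted gene itself thus did not pass the threshold in this design. Ablim1, an actin-binding protein, was at 70.0 and 226 CPM against 0.301 and 0.563, and 16 of 22 control and 0 of 22 null cells had at least 10 reads. By limma its adjusted p was 0.00455, within 2.75e-17 to 0.581 over all alternatives. In Pax5-low BLP cells Ablim1 was likewise at 64.6 and 102 CPM in controls and 0.304 and 0.253 in nulls.

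Tyms, the thymidylate synthase that supplies DNA synthesis, was at 1.72 and 2.97 CPM in control and at 154 and 171 CPM in null Pax5 cells of BLP (log2 difference 6.11 ± 0.89, adjusted p = 0.105, edgeR). It had at least 10 reads in 2 of 22 control and 12 of 22 null cells. In Pax5-low BLP cells Tyms was at 151 and 206 CPM in controls and 134 and 131 in nulls, so that there both nulls lay below both controls. Cryl1, a dehydrogenase related to lens crystallin, was at 0.353 and 0.150 CPM against 15.1 and 71.4 (adjusted p = 0.105, edgeR), with 0 of 22 and 4 of 22 cells holding 10 reads. Grn was at 68.5 and 62.3 CPM in the controls and 1.00 and 2.03 CPM in the nulls (log2 difference -5.43 ± 0.66, adjusted p = 0.105, edgeR). The control values rested on few cells. A single cell held 1094 Grn reads in mouse 18218 and another held 1212 in mouse 18220, while most other control cells had fewer than 10. By limma, which weighs cells equally, the log2 difference of Grn was -1.54 (adjusted p = 0.359). The levels of Ebf1 overlapped between genotypes, at 632 and 501 CPM in control and 513 and 632 in null Pax5 cells of BLP. So did those of Cd79a, at 746 and 1184 against 1002 and 832. In ALP the same comparison could not be run, since control ALP held 1 Pax5 cell.

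Whether the class difference itself depended on genotype was tested in BLP as the difference of both effects. Of 17855 genes 0 passed by edgeR (percent called 0), 1515 (8.49%) had an unadjusted p under 0.05, DESeq2 called 745 and limma called 0. The differences of Ckap5, Grn, Tyms and Rnf14 had log2 values of -4.50, -5.22, 6.54 and 6.68, each with an adjusted p of 0.292 (edgeR).

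**Figure D5:**
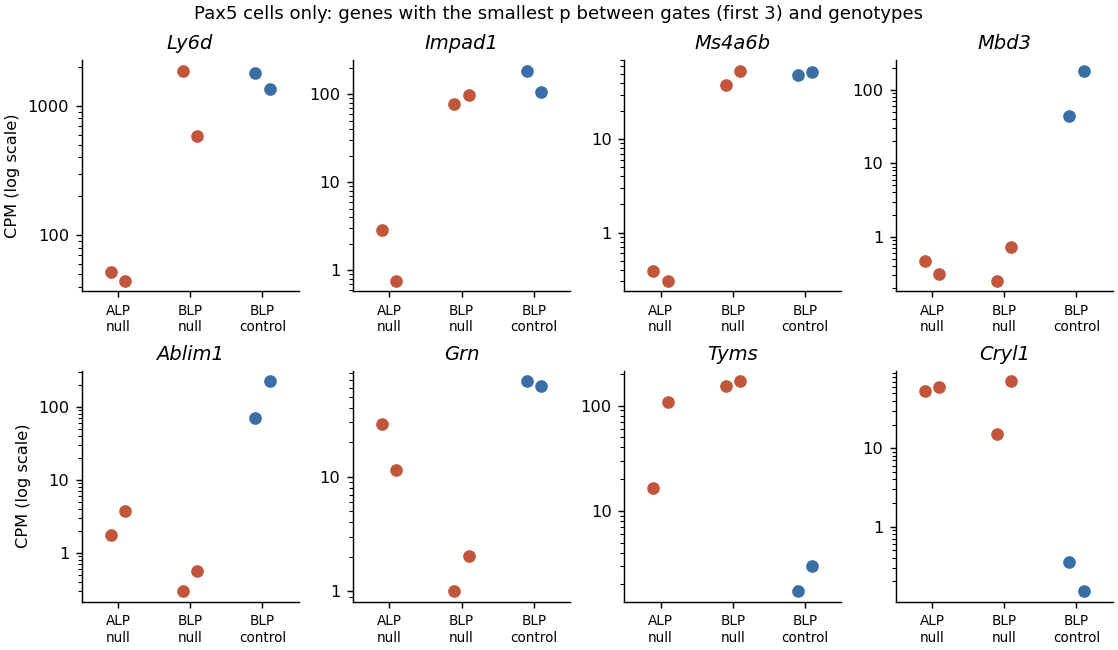
CPM of 8 genes in the summed Pax5 cells of each mouse on a log scale, by population for Ly6d, Impad1 and Ms4a6b and by genotype for Mbd3, Ablim1, Grn, Tyms and Cryl1. Ly6d stands at 52.0 and 44.5 in null ALP and at 1876 and 582 in null BLP, and Ablim1 at 70.0 and 226 in control BLP and 0.301 and 0.563 in null BLP.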

How the data were processed

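Single cells were sorted into wells and amplified by a full-length protocol without molecular identifiers, per the labels' protocols. The deposited values are whole-number read counts per gene, made by the authors with GSNAP and HTSeq 0.5.3p3, per the submitters' processing notes, which name the mm10 build. No source names the gene annotation or whether strand was counted; reads of overlapping or antisense genes may be mixed. Rows that name no gene held 36.2% to 97.1% of the entries of a kept cell (median 51.0%) and were left out.

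Reads were summed by mouse, population and Pax5 class and tested with edgeR 4.0.16 (TMM scaling, filterByExpr, Benjamini-Hochberg adjustment), with 7 residual degrees of freedom. DESeq2 1.42.0, limma 3.58.1, other filters, other thresholds, thinning, a mouse block and left-out mice were alternatives, run in R 4.3.3 and Python 3.11.15. The scripts were tested on simulated data for the comparison of Pax5 classes. With the dispersion estimated from the data, DESeq2 made 217 false calls and edgeR 6. There edgeR recovered 10.4% of 2-fold, 62.7% of 4-fold and 95.5% of 16-fold changes. No doublet caller was run, as each well held 1 sorted cell, and 0 pairs of cells had identical counts. P-values of the edgeR, DESeq2 and limma fits rest on the spread among 14 libraries from 4 mice. Without the block, libraries from 1 mouse were treated as independent. P-values of the shares come from permutation over mice. Classes and populations from 1 mouse come from the same animal, which is the pairing used for the block; their deviations correlated at 0.00423 to 0.0536 across genes.

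The members and gene lists were chosen with earlier results of these data known. 1 gene is not reported here and was left out of the lists. Named genes were drawn from Pax5, Cd79a, Igll1, Ebf1 and Mbd3, and from up to 10 called genes a direction with a mean of at least 20 CPM. Where fewer than 3 passed, they were drawn from the 5 a direction with the smallest p. Up to 4 members of each list were added. Not all genes chosen in this way are named in the text. Vpreb1, Vpreb2, Dntt, Ighm, Il7r, Flt3 and the genes named for having no reads were chosen after their values were seen.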

Additional observations from a re-analysis of the deposited data

Results flagged for a closer look

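The quality filters left out 1 null BLP cell, and it had at least 10 Pax5 reads (100%); it enters only the shares over all sorted cells. None of the 3 control BLP cells left out had 10 Pax5 reads.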

How the results depend on the processing

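The count of 25 genes between Pax5 cells and Pax5-low cells became 1356 with DESeq2, 813 with no filter on low counts, 56 with limma on mean log2 values, 38 with limma and the replicate block, 2 without the ALP libraries of mouse 18219, 0 with the replicate block in edgeR and 0 with a threshold of 1 Pax5 read. Leaving out 1 mouse gave 0 to 1. It was 27 with RLE size factors, 35 with thinned cells, 30 with libraries of at least 1 cell, 25 with at least 5 cells, 37 at 10 CPM and 32 with limma on thinned cells. The count of 0 between genotypes became 1577 with DESeq2, 270 with no filter, 1 with limma, 10 with limma on thinned cells, and 0 to 3 with a mouse left out. Between populations it became 1380, 218, 23 and 28 in that order, and 1 with thinned cells in edgeR and 1 with limma and the replicate block. For the difference of class effects, it became 745 with DESeq2 and 151 with no filter. The edgeR block left 0 for populations and for the difference of class effects, and could not be fitted between genotypes, since each mouse has 1 genotype. The BLP share difference of null minus control turned positive at 50 Pax5 reads (0.614), after thinning (4.78), at 10 CPM (0.530) and with all sorted cells (1.39), was -12.0 at 1 Pax5 read, and leaving out 1 mouse gave -3.32 to 1.44. With a threshold of 1 Pax5 read, the genotype difference of Tyms turned negative (-0.0163), and the difference of class effects became -1.11 for Rnf14, -0.17 for Tyms and 0.12 for Grn. The cause was not tested. Limma with a block, on thinned cells or with a mouse left out, and leaving out the ALP libraries of mouse 18219, were chosen after seeing the data. The comparison of genotypes in ALP Pax5 cells was not run under any alternative.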
